A study of Bos taurus with 86 samples.

Results

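The genes described here are the DNA replication and cell cycle genes of a bovine cDNA array, read in single embryos. They were chosen by name: every row of the array whose single gene symbol in the platform annotation begins with MCM, ORC, RFC, POLA, POLD, POLE, CDC (without CDC42), CDK or CCN followed by a letter, or is PCNA. The rule takes 53 of the 4452 genes with a single symbol, spread over 128 rows and 64 clones. The values of 46 genes on 101 rows could be tested, and the other 7 had too few measured embryos in at least 1 group. The rule goes by letters and not by function. Of the 46 tested genes 6 are cyclins and kinases of transcription, and 21 were put in a class of other roles. That class is not free of cell cycle genes, as it holds the mitosis gene CDCA8.

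Before a cell divides it copies its DNA, starting from origins that are marked by the origin recognition complex and loaded with the MCM helicase. The helicase unwinds the DNA, replication factor C places the PCNA ring on it, and DNA polymerases delta and epsilon copy it while held by that ring. Cyclins and their kinases (CDKs) time each step, inhibitors such as CDKN1A hold them back, and the anaphase promoting complex with its activator CDC20 ends mitosis by marking proteins for destruction. Cleaving embryos are known for little growth between divisions.

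The embryos fall into 3 groups by their labels: 15 IVF embryos, 14 IVD embryos and 14 AI embryos. IVF and AI were read as in vitro fertilization and artificial insemination, and IVD, which the labels do not spell out, is used as a group name. By its title the study asked what maturation, fertilization and culture in vitro do to the transcripts of single embryos. Whole embryos were used. The sources used here name no breed, stage or further treatment. The numbers 12_1 to 12_4 of 4 IVD embryos begin alike, as do those of AI embryos H1, H3 and H5, and no label says whether either set has a common origin. All groups share the amplification of embryo RNA in 3 rounds and a common reference RNA of unstated make-up amplified in 2 rounds. Each embryo was hybridised on 2 arrays with the dyes exchanged. Values are log2 ratios of embryo to reference, averaged over an embryo's 2 arrays after centring each array. In a whole embryo, fewer cells of a type and less RNA per cell cannot be told apart.

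The direction of the ratios is likely, not stated. The 2 arrays of an embryo were anticorrelated in 43 of 43 embryos (Pearson r from -0.912 to -0.59 over rows), so the deposited ratios run by dye, and the labels do not name the numerator. Read as embryo over reference, 12 of 15 tested trophectoderm genes lay above 0 (median 2.05), against 1 of 3 cumulus and granulosa genes (median -0.10). Of the inner cell mass list only SALL4 was tested (0.06), and no gene of the blood, oviduct or oocyte lists was. If the ratios run the other way, all signs given here turn. The IVD arrays stood apart: the number of rows without a value was 3076.5 to 5099.5 per IVF embryo, 1001.5 to 1871.5 per IVD embryo and 3613 to 5713 per AI embryo. The dye-swapped pair of an embryo correlated, after turning one of them, at 0.717 to 0.911 for IVF, 0.59 to 0.767 for IVD and 0.816 to 0.912 for AI. The handling of the IVD arrays and the IVD group cannot be told apart.

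IVD embryos had lower ratios than AI embryos for the 3 MCM helicase subunits that the rule takes. The mitotic activator CDC20 and the G1 kinase CDK4 were also lower, and the transcription kinase CDK9 was higher. The calls of MCM7 and CDK4 among these were lost when the arrays were not centred. IVF embryos had higher CDK4, CDKN1A and POLDIP3 than AI embryos, and lower CDCA7 and CDCA8. Of these IVF calls, those of CDK4 and CDCA8 were each lost in 1 alternative fit, and the clones of POLDIP3 disagreed. PCNA, ORC6, RFC2, CDK2 and CCNE1 passed the test in no comparison, as did 13 other genes (18 of 46, 39.1%, against 28.8% of all features). PCNA and ORC6 did pass in some alternative fits, so a missing call can also depend on the processing. Apart from the alternative fits, these statements rest on limma fitted to all 6278 features of the array. Every adjusted p below is from that fit unless an alternative is named (Benjamini-Hochberg, two-sided, threshold 0.05).

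The number of genes called was not above the background of the array in any comparison. Between IVF and AI embryos, 15 of 46 genes (32.6%) passed the threshold, against 37.7% of all features. Of these genes 12 were higher and 3 lower in IVF embryos (all features: 19.9% higher, 17.7% lower). Between IVD and AI embryos, 20 of 46 genes (43.5%) passed, against 46.5% of all features, with 7 higher and 13 lower in IVD embryos (all features: 25.5% higher, 21.0% lower). Between IVF and IVD embryos, 19 of 46 genes (41.3%) passed, against 47.6% of all features, with 15 higher and 4 lower in IVF embryos (all features: 22.3% higher, 25.2% lower). In the F-test over the 3 groups 28 genes (60.9%) passed, against 67.1% of all features. Any 2 of these comparisons share the embryos of 1 group, so their values are set side by side without a test between them.

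The split by direction depended on the centring of the arrays. With the deposited values as given, the median difference of all features between IVD and AI embryos was 0.32, against 0.06 with centred arrays, and 12 genes were then higher and 4 lower in IVD embryos (44.9% of all features called, 85.3% of them higher). Between IVF and IVD embryos that median was -0.27, against -0.01, and 6 genes were then higher and 9 lower in IVF embryos (42.4% of all features called, 17.5% of them higher). The median difference of the 46 genes with centred arrays was 0.05 between IVF and AI embryos, -0.04 between IVD and AI embryos and 0.19 between IVF and IVD embryos. Calls that the values as given ended are named with each gene below. A fit that took embryos of the same number as a block ended 20 of 54 calls, and those losses are not named with every gene.

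**Figure D1:**
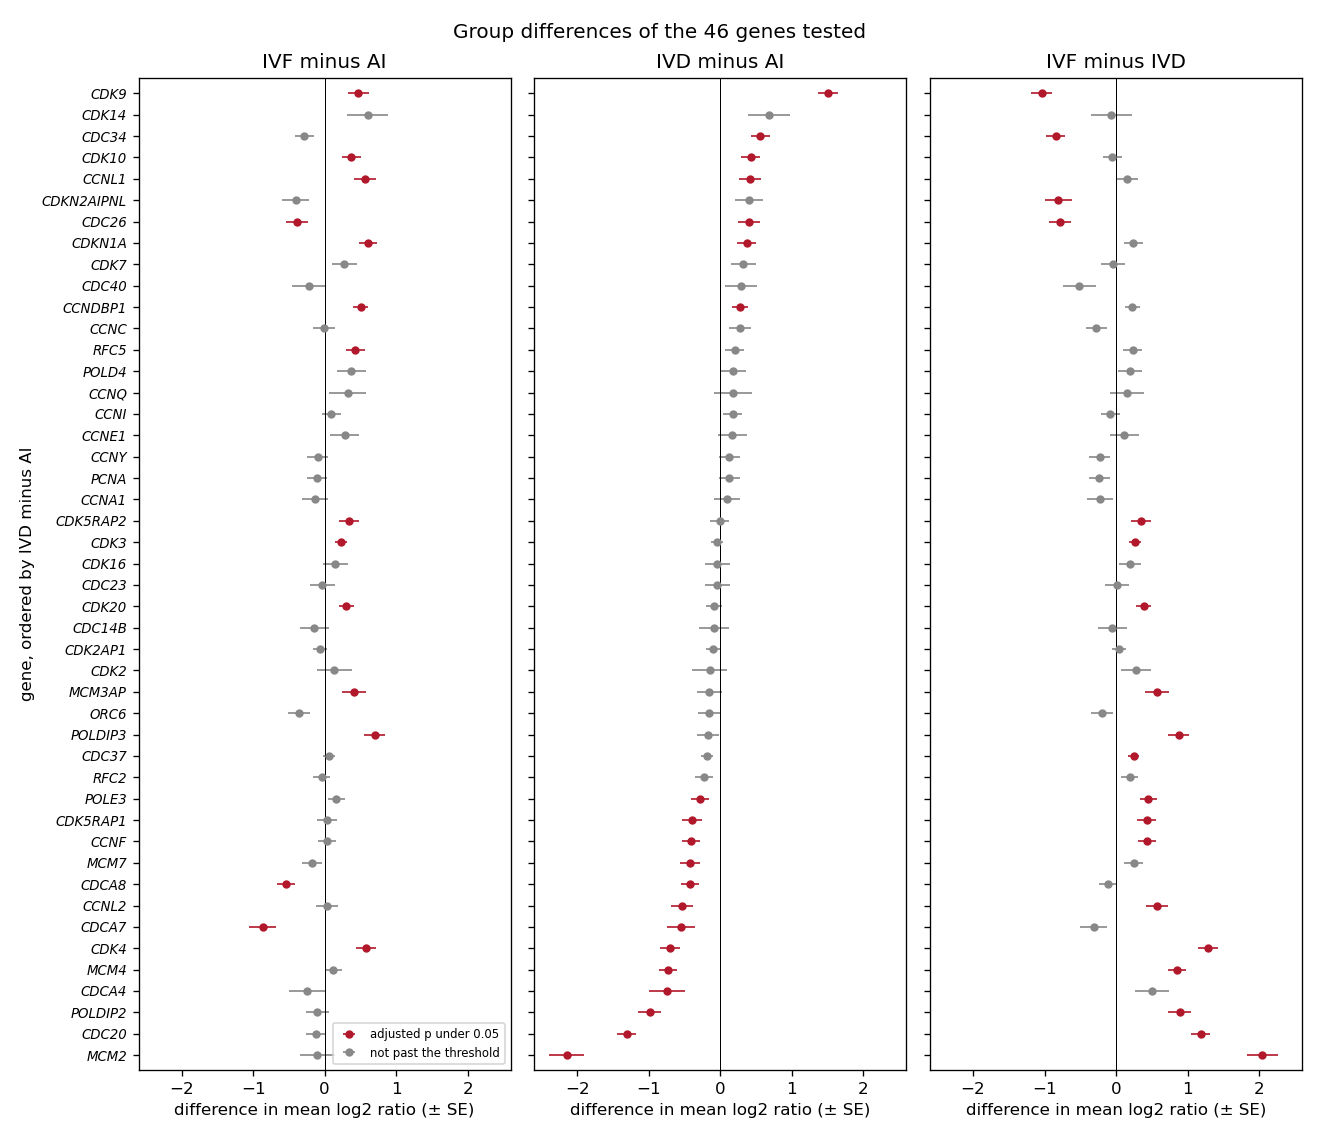
Differences in mean log2 ratio (points, with bars of 1 SE) of the 46 tested genes, IVF minus AI on the left, IVD minus AI in the middle and IVF minus IVD on the right. Red points passed the limma threshold, grey points did not, and genes run down the page from the highest to the lowest IVD minus AI difference. MCM2 (-2.15) and CDC20 (-1.31) are lowest and CDK9 (1.51) is highest in IVD minus AI.

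MCM2, a subunit of the MCM helicase ring, had the lowest difference of the list between IVD and AI embryos. It was measured in 11 IVF, 11 IVD and 7 AI embryos. Its log2 ratio ran from -0.86 to 1.41 in IVF embryos (median 0.60), from -2.08 to -0.91 in IVD embryos (median -1.59) and from 0.17 to 1.15 in AI embryos (median 0.64). All 11 IVD embryos lay below the lowest embryo of both other groups. The difference was -2.15 ± 0.25 (SE) between IVD and AI embryos, which is 4.43-fold lower in IVD (adjusted p = 3.16e-08), and 2.04 ± 0.22 between IVF and IVD embryos (adjusted p = 5.75e-09). Between IVF and AI embryos it was -0.10 ± 0.25 (adjusted p = 0.767). Ranges that do not overlap were found for 2 of 46 genes between IVD and AI embryos (MCM2 and CDK9, 4.35%), against 2.84% of all features. They were found for 2 between IVF and IVD embryos (MCM2 and CDC20), against 3.28%, and for 0 between IVF and AI embryos, against 0.542%.

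MCM4, of the same ring, was measured in every embryo. It ran from -1.16 to 0.19 in IVF embryos (median -0.38), from -1.62 to -0.87 in IVD embryos (median -1.21) and from -1.00 to 0.01 in AI embryos (median -0.67). Of 14 IVD embryos, 13 lay below the lowest AI embryo, and 14 of 15 IVF embryos lay above the highest IVD embryo. The difference was -0.73 ± 0.12 between IVD and AI embryos (adjusted p = 6.14e-06; -0.48 with the values as given) and 0.85 ± 0.12 between IVF and IVD embryos (adjusted p = 1.9e-07). IVF and AI embryos overlapped widely, with a difference of 0.12 ± 0.12 (adjusted p = 0.438).

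MCM7, also a ring subunit, moved less. It ran from -0.45 to 0.50 in IVF embryos (median -0.09), from -1.05 to 0.57 in IVD embryos (median -0.26) and from -0.87 to 0.68 in AI embryos (median 0.23). The groups overlapped over most of their ranges. The difference between IVD and AI embryos was -0.42 ± 0.14 (adjusted p = 0.0136), and it did not pass with the values as given. The other comparisons gave -0.18 (IVF minus AI, adjusted p = 0.317) and 0.24 (IVF minus IVD, adjusted p = 0.142). MCM3, MCM5 and MCM6 were not analysed here.

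**Figure D2:**
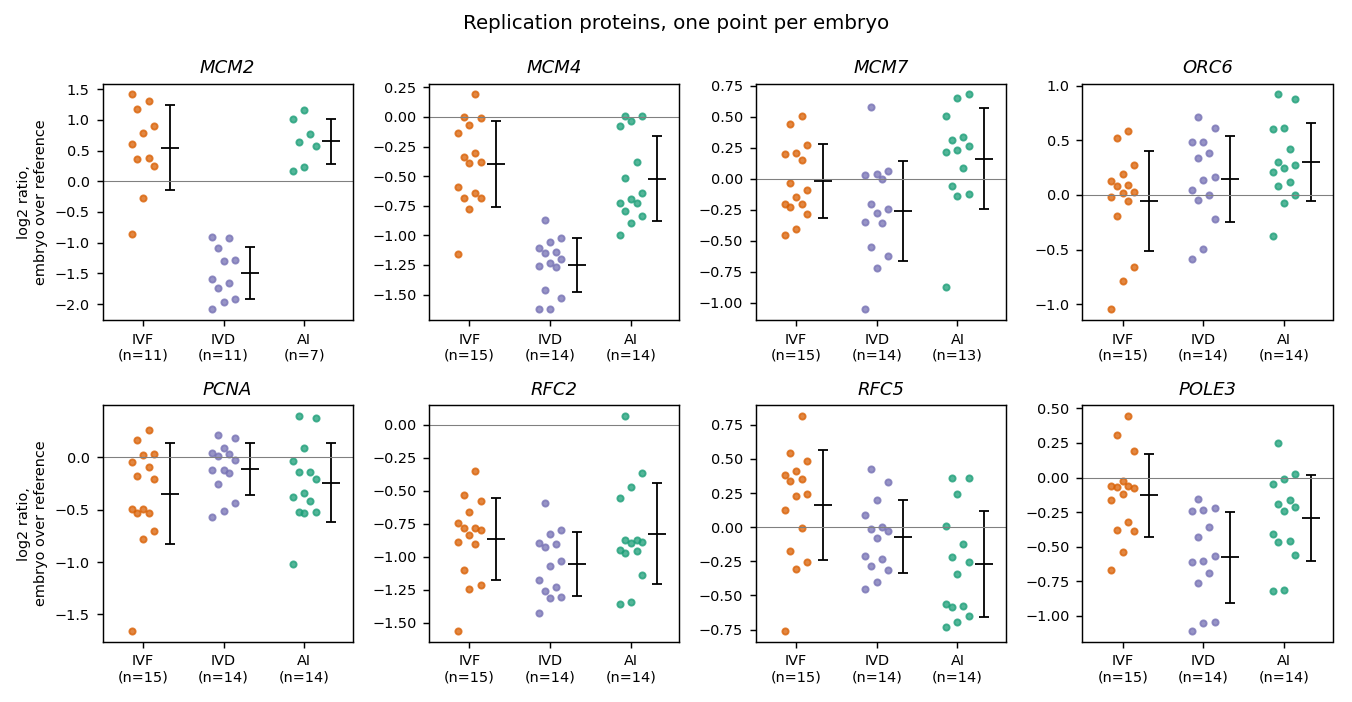
Log2 ratio of embryo to reference for 8 genes of DNA replication, 1 point per embryo, with the mean and SD beside each group in black and the number of measured embryos under it. The 11 IVD embryos lie between -2.08 and -0.91 for MCM2, below every IVF and AI embryo, while the groups overlap for MCM7, ORC6, PCNA, RFC2, RFC5 and POLE3.

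The sliding clamp and most of the other replication proteins did not pass the test. PCNA, the ring that holds polymerases on DNA, ran from -1.66 to 0.26 in IVF embryos (median -0.21), from -0.57 to 0.21 in IVD embryos (median -0.07) and from -1.02 to 0.39 in AI embryos (median -0.27). All 3 groups overlapped, and 1 IVF embryo lay below every other. The 95% interval of the PCNA difference was -0.39 to 0.18 for IVF minus AI, -0.17 to 0.42 for IVD minus AI and -0.52 to 0.05 for IVF minus IVD. None of these intervals reached a difference as large as that of MCM4 between IVD and AI embryos. PCNA did pass as lower in IVF than in IVD embryos with the values as given and with the Cy3 arrays alone.

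RFC2, a subunit of the clamp loader, had medians of -0.80 in IVF embryos, -1.05 in IVD embryos and -0.89 in AI embryos, with no call (95% interval of IVD minus AI from -0.47 to 0.02). RFC5, of the same loader, ran from -0.76 to 0.81 in IVF embryos (median 0.24), from -0.45 to 0.43 in IVD embryos (median -0.05) and from -0.73 to 0.36 in AI embryos (median -0.30). It was higher in IVF than in AI embryos by 0.43 ± 0.13 (adjusted p = 0.0102), with overlapping ranges. That call was lost with the values as given, with the arrays that carry the embryo in Cy5 alone and with dye bias as a block, a term for clusters of embryos with a like dye effect (average linkage here and below). ORC6, a subunit of the origin recognition complex, had medians of 0.03 in IVF embryos, 0.15 in IVD embryos and 0.26 in AI embryos. Its difference between IVF and AI embryos was -0.36 ± 0.15 (adjusted p = 0.0549). That difference passed in 3 alternatives, the Cy3 arrays alone among them.

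Of the polymerase subunits, POLE3, a histone-fold subunit of polymerase epsilon, ran from -0.67 to 0.44 in IVF embryos (median -0.08), from -1.11 to -0.16 in IVD embryos (median -0.59) and from -0.82 to 0.25 in AI embryos (median -0.23). The ranges overlapped, with IVD embryos lowest. It was higher in IVF than in IVD embryos by 0.45 ± 0.12 (adjusted p = 0.00175), a call lost with the values as given and with the Cy5 arrays alone. The difference between IVD and AI embryos, -0.28 ± 0.12, lay at the threshold (adjusted p = 0.0496) and was lost in 8 of the alternatives, the values as given among them. POLD4, the small subunit of polymerase delta, was measured in 8 IVF embryos (median -0.91), 14 IVD embryos (median -1.10) and 7 AI embryos (median -1.25), with no call. With the Cy3 arrays alone, its differences of both other groups from AI embryos passed.

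Among the G1 regulators, the kinase CDK4 differed in all 3 comparisons. CDK4, which with D-type cyclins starts the passage out of G1, ran from -1.40 to 0.61 in IVF embryos (median -0.39), from -2.15 to -1.14 in IVD embryos (median -1.73) and from -1.43 to -0.43 in AI embryos (median -1.10). The IVD embryos lay lowest, 13 of 14 of them below the lowest AI embryo, and 8 of 15 IVF embryos lay above the highest AI embryo. CDK4 was higher in IVF than in AI embryos by 0.58 ± 0.14 (adjusted p = 0.00118), a call lost with the embryo number as a block. It was lower in IVD than in AI embryos, at -0.70 ± 0.14 (adjusted p = 8.19e-05, and -0.45 and no call with the values as given). It was higher in IVF than in IVD embryos by 1.28 ± 0.14, or 2.43-fold (adjusted p = 5e-10). Its 4 rows come from 2 clones, and the IVF minus IVD difference was 1.32 and 1.30 on the rows of one clone and 1.25 and 1.26 on those of the other.

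The partners of the next step passed in no comparison. CDK2, the kinase that works with cyclin E, had medians of -1.05 in IVF embryos, -1.24 in IVD embryos and -1.16 in AI embryos, of which 8 had a value. Its 95% interval was -0.36 to 0.62 for IVF minus AI and -0.64 to 0.35 for IVD minus AI. The IVF interval takes in the CDK4 difference between IVF and AI embryos, and the IVD interval does not reach that between IVD and AI embryos. CCNE1, cyclin E1, had nearly the same median in the 3 groups, 2.29 in IVF embryos, 2.24 in IVD embryos and 2.27 in AI embryos. CCNE1 ran from 1.09 to 3.82 in IVF embryos, from 1.61 to 2.86 in IVD embryos and from 0.41 to 2.73 in AI embryos.

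CDKN1A, the p21 inhibitor of cyclin-dependent kinases, was higher in both other groups than in AI embryos. It ran from -1.47 to -0.34 in IVF embryos (median -1.00), from -1.67 to -0.51 in IVD embryos (median -1.19) and from -1.99 to -1.11 in AI embryos (median -1.47). Of 15 IVF embryos, 10 lay above the highest AI embryo, as did 6 of 13 IVD embryos. The difference was 0.61 ± 0.12 between IVF and AI embryos (adjusted p = 0.000168), which no alternative ended. Between IVD and AI embryos it was 0.37 ± 0.13 (adjusted p = 0.018). The IVD call was lost after quantile normalization, with the Cy3 arrays alone and without IVD embryos 12_1 to 12_4, and the value was 0.61 with the values as given.

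CDC20, the activator that directs the anaphase promoting complex to its mitotic targets, ran from 1.12 to 2.14 in IVF embryos (median 1.68), from -0.02 to 1.10 in IVD embryos (median 0.45) and from 0.87 to 2.36 in AI embryos (median 1.88). Every IVF embryo lay above the highest IVD embryo, and 13 of 14 IVD embryos lay below the lowest AI embryo. The difference was -1.31 ± 0.13 between IVD and AI embryos, or 2.47-fold lower in IVD (adjusted p = 1.24e-10), and 1.18 ± 0.13 between IVF and IVD embryos (adjusted p = 6.99e-10). IVF and AI embryos differed by -0.12 ± 0.13 (adjusted p = 0.466).

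CCNF, an F-box cyclin that serves as a substrate receptor of the SCF ubiquitin ligase, followed the same order with smaller differences. It ran from -0.92 to 0.73 in IVF embryos (median -0.46), from -1.07 to -0.42 in IVD embryos (median -0.84) and from -1.19 to 0.15 in AI embryos (median -0.32). The ranges overlapped. CCNF was lower in IVD than in AI embryos, at -0.40 ± 0.13 (adjusted p = 0.00816) and higher in IVF than in IVD embryos by 0.43 ± 0.12 (adjusted p = 0.00382), and both calls were lost with the values as given. CCNA1, an A-type cyclin, and CDC14B, a phosphatase, passed in no comparison, though CCNA1 did in some alternatives.

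Of 2 core subunits of the anaphase promoting complex, CDC26 passed and CDC23 did not. CDC26 ran from -2.06 to -0.57 in IVF embryos (median -1.32), from -1.11 to 0.09 in IVD embryos (median -0.52) and from -1.91 to -0.28 in AI embryos (median -0.78). Of 15 IVF embryos, 10 lay below the lowest IVD embryo. CDC26 was lower in IVF than in IVD embryos, at -0.78 ± 0.15 (adjusted p = 5.28e-05). No alternative run for these groups ended that call, though dye bias as a block was not run for them. The difference was 0.40 between IVD and AI embryos (adjusted p = 0.0349), lost with the Cy3 arrays alone and without IVD embryos 12_1 to 12_4, and 0.65 with the values as given. Between IVF and AI embryos it was -0.38 (adjusted p = 0.0468), lost in 9 alternatives, the values as given among them. CDC23 had medians of -1.07 in IVF embryos, -1.06 in IVD embryos and -0.95 in AI embryos, with a 95% interval of -0.40 to 0.31 for IVD minus AI.

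**Figure D3:**
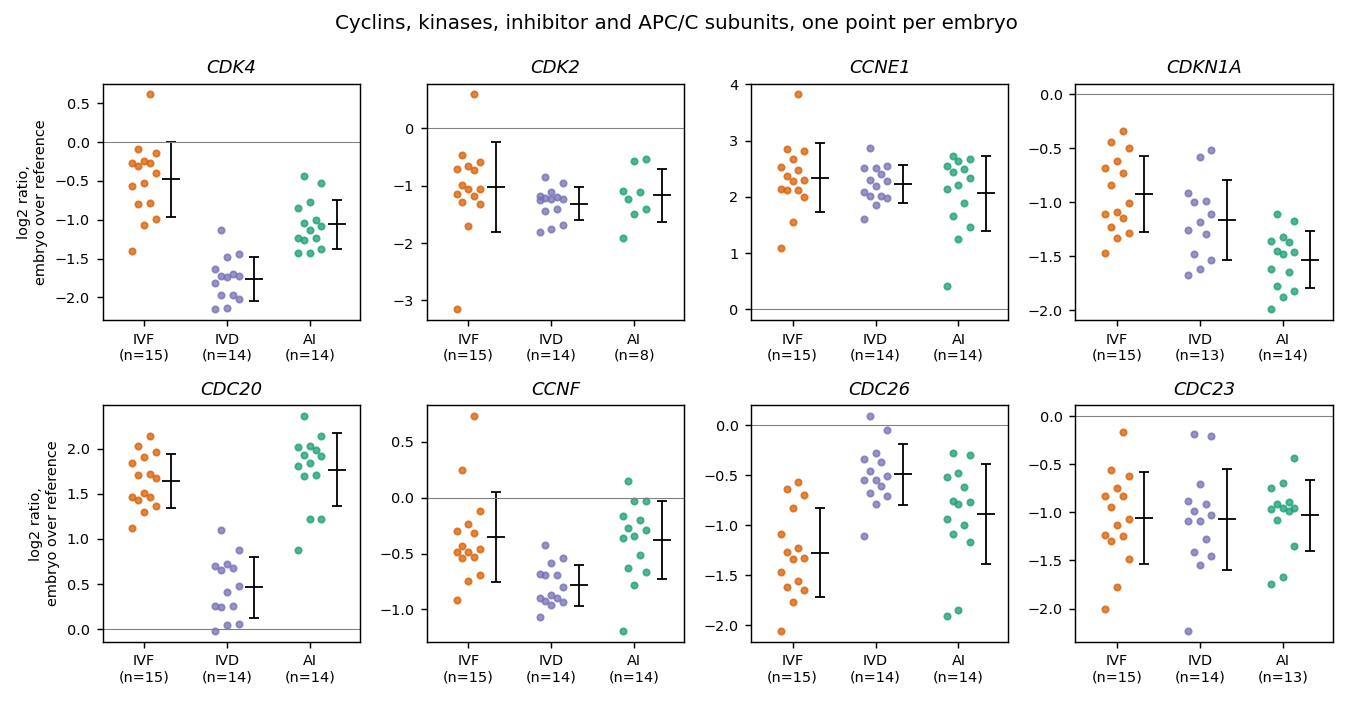
Log2 ratio of embryo to reference for 8 cyclins, kinases, the inhibitor CDKN1A and genes of the anaphase promoting complex, 1 point per embryo, with the mean and SD beside each group in black. CDK4 and CDC20 are lowest in IVD embryos, CDKN1A is lowest in AI embryos, and CDK2, CCNE1 and CDC23 overlap in all groups.

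The cyclins and kinases of transcription include CDK9, which had the highest difference of the list between IVD and AI embryos. This kinase of the elongation factor P-TEFb ran from 2.28 to 3.25 in IVF embryos (median 2.67), from 2.90 to 4.61 in IVD embryos (median 3.85) and from 1.73 to 2.67 in AI embryos (median 2.27). All 14 IVD embryos lay above the highest AI embryo, while the lowest IVD embryo lay above 10 of 14 IVF embryos. CDK9 was higher in IVD than in AI embryos by 1.51 ± 0.14, or 2.84-fold (adjusted p = 3.96e-11), and lower in IVF than in IVD embryos, at -1.04 ± 0.14 (adjusted p = 1.36e-07). Its difference between IVF and AI embryos, 0.47 ± 0.14 (adjusted p = 0.00992), was lost with the Cy3 arrays alone and with dye bias as a block.

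Cyclins L1 and L2, which are linked to splicing, did not move together. CCNL1 ran from -0.69 to 0.88 in IVF embryos (median -0.13), from -0.68 to 0.48 in IVD embryos (median -0.28) and from -1.15 to 0.24 in AI embryos (median -0.64). It was higher in IVF than in AI embryos by 0.56 ± 0.15 (adjusted p = 0.00327) and in IVD than in AI embryos by 0.41 ± 0.15 (adjusted p = 0.0271). Both calls were lost with the Cy3 arrays alone, the IVF call also with dye bias as a block and the IVD call also without IVD embryos 12_1 to 12_4, with 0.66 for IVD minus AI in the values as given. CCNL2 ran from -0.74 to 1.16 in IVF embryos (median -0.03), from -1.18 to 0.49 in IVD embryos (median -0.66) and from -0.61 to 0.81 in AI embryos (median -0.14). CCNL2 was lower in IVD than in AI embryos, at -0.53 ± 0.16 (adjusted p = 0.00523) and higher in IVF than in IVD embryos by 0.57 ± 0.15 (adjusted p = 0.00204), and the values as given ended both calls. The groups overlapped for both cyclins.

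CDK10 ran from -1.18 to 0.09 in IVF embryos (median -0.36), from -0.58 to 0.07 in IVD embryos (median -0.36) and from -1.99 to -0.12 in AI embryos (median -0.72). The ranges overlapped. It was higher by 0.37 ± 0.13 in IVF than in AI embryos (adjusted p = 0.0207) and by 0.42 ± 0.13 in IVD than in AI embryos (adjusted p = 0.0078). The sign of the IVF difference depended on the dye, with 0.92 on the Cy5 arrays and -0.17 on the Cy3 arrays (adjusted p = 0.402), and the IVD call was lost on the arrays of either dye alone (0.68 with the values as given). The IVF call was also lost with the values as given, with 1 row per gene, in a fit of those groups alone and with dye bias as a block. CCNC of the Mediator kinase module and CDK7 of the factor TFIIH passed in no comparison. CDK7 had medians of 2.04 in IVF embryos, 2.11 in IVD embryos and 1.73 in AI embryos. Its IVD minus AI difference passed in 3 alternatives, and CCNC passed between IVD and each other group with the values as given.

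The 21 tested genes of the class of other roles, some of them cell cycle genes, were mixed. Between IVF and AI embryos 6 were higher and 2 lower in IVF, between IVD and AI embryos 2 were higher and 5 lower in IVD, and between IVF and IVD embryos 8 were higher and 2 lower in IVF. Over all features 37.7% were called between IVF and AI embryos, 46.5% between IVD and AI embryos and 47.6% between IVF and IVD embryos. CDC34, the ubiquitin-conjugating enzyme that works with the SCF ligase, ran from 1.43 to 2.71 in IVF embryos (median 1.89), from 2.31 to 3.40 in IVD embryos (median 2.58) and from 1.67 to 2.71 in AI embryos (median 2.17). Of 15 IVF embryos, 13 lay below the lowest IVD embryo. CDC34 was higher in IVD than in AI embryos by 0.56 ± 0.14 (adjusted p = 0.000863) and lower in IVF than in IVD embryos, at -0.85 ± 0.13 (adjusted p = 1.36e-06). Neither call was lost in any alternative run with IVD embryos, which dye bias as a block was not.

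CDCA7 and CDCA8 were lower in both other groups than in AI embryos. CDCA7, a protein that recruits a chromatin remodeller needed for DNA methylation, ran from -3.29 to -1.41 in IVF embryos (median -2.32), from -3.46 to -1.32 in IVD embryos (median -1.78) and from -1.92 to -0.38 in AI embryos (median -1.58). The lowest AI embryo lay above 11 of 15 IVF embryos and 5 of 14 IVD embryos. The difference was -0.87 ± 0.19 between IVF and AI embryos (adjusted p = 0.000498) and -0.55 ± 0.20 between IVD and AI embryos (adjusted p = 0.0195). The IVD call was lost with the values as given and without either numbered set of embryos (12_1 to 12_4, or H1, H3 and H5).

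CDCA8, borealin of the chromosomal passenger complex, ran from -0.22 to 1.17 in IVF embryos (median 0.46), from 0.33 to 1.06 in IVD embryos (median 0.60) and from 0.44 to 1.60 in AI embryos (median 1.08). Ranges overlapped, and the lowest AI embryo lay above 6 of 15 IVF and 6 of 14 IVD embryos. The difference was -0.54 ± 0.12 between IVF and AI embryos (adjusted p = 0.000517), lost with dye bias as a block (average linkage). It was -0.42 ± 0.12 between IVD and AI embryos (adjusted p = 0.0045), lost with the values as given and with the Cy3 arrays alone. CDCA4 was measured in 10 IVF embryos (-1.90 to 0.16, median -0.48), 11 IVD embryos (-1.35 to -0.58, median -1.18) and 8 AI embryos (-1.33 to 0.34, median -0.13). The IVD and AI ranges of CDCA4 overlapped. Its difference between IVD and AI embryos, -0.75 ± 0.25 (limma adjusted p = 0.0146), was lost with the values as given and with the Cy5 arrays alone.

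Both genes named for binding polymerase delta were higher in IVF than in IVD embryos. POLDIP2 ran from -0.65 to 0.88 in IVF embryos (median 0.43), from -1.16 to 0.07 in IVD embryos (median -0.44) and from -0.67 to 1.41 in AI embryos (median 0.58). Of 14 IVF embryos, 13 lay above the highest IVD embryo. The difference was -0.99 ± 0.16 between IVD and AI embryos (adjusted p = 2.69e-06) and 0.89 ± 0.16 between IVF and IVD embryos (adjusted p = 9.06e-06; 0.51 with the Cy3 arrays alone). POLDIP3, which is also known for a part in mRNA export and translation, ran from 0.89 to 2.19 in IVF embryos (median 1.48), from 0.16 to 1.26 in IVD embryos (median 0.59) and from -0.46 to 1.42 in AI embryos (median 0.89). Of 15 IVF embryos, 9 lay above the highest AI embryo and 12 above the highest IVD embryo. POLDIP3 was higher in IVF than in AI embryos by 0.70 ± 0.15 (adjusted p = 0.000327) and than in IVD embryos by 0.87 ± 0.15 (adjusted p = 6.07e-06). Its clones disagreed on the IVF minus AI difference, which was 0.74 on both rows of one clone and 0.08 on the kept row of the other. That kept row was measured in 14 IVF and 9 AI embryos and read higher, at a mean of 1.82 against 0.51 in AI embryos. A gene value averaged the rows an embryo had, so embryos without that row read lower. The POLDIP3 difference, ranges and embryo counts against AI embryos therefore mix unlike rows.

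CCNDBP1, a protein that binds cyclin D1, ran from -0.87 to 0.49 in IVF embryos (median 0.04), from -0.81 to 0.16 in IVD embryos (median -0.18) and from -0.78 to -0.21 in AI embryos (median -0.51). Of 15 IVF embryos, 11 lay above the highest AI embryo, as did 8 of 14 IVD embryos. The difference was 0.50 ± 0.11 between IVF and AI embryos (adjusted p = 0.000221), which no alternative ended. Between IVD and AI embryos it was 0.28 ± 0.11 (adjusted p = 0.0316), lost on the arrays of either dye alone and with 1 row per gene, and 0.53 with the values as given. CDKN2AIPNL ran from -2.38 to -0.53 in IVF embryos (median -1.36), from -1.19 to -0.10 in IVD embryos (median -0.59) and from -1.77 to -0.17 in AI embryos (median -0.99). It was lower in IVF than in IVD embryos, at -0.81 ± 0.19 (adjusted p = 0.000468), with 8 of 14 IVF embryos below the lowest IVD embryo.

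**Figure D4:**
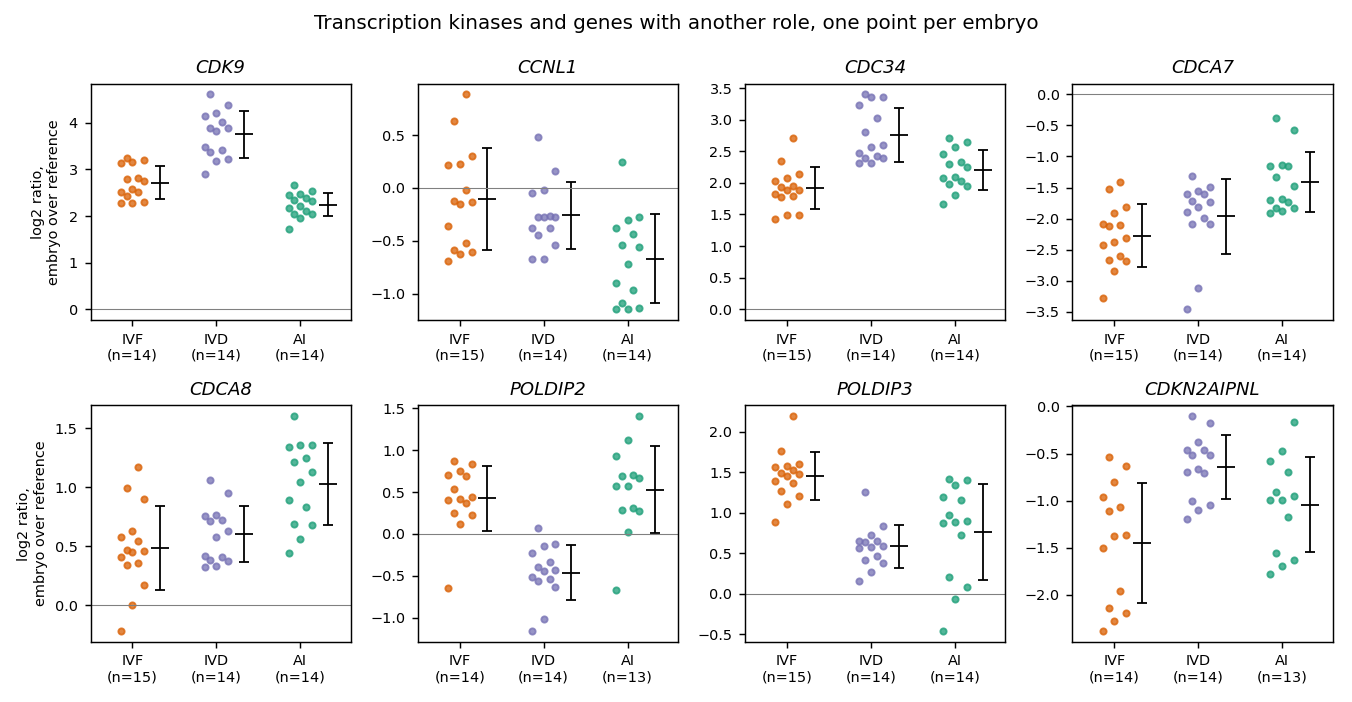
Log2 ratio of embryo to reference for CDK9, CCNL1 and 6 genes of the class of other roles, 1 point per embryo, with the mean and SD beside each group in black. All 14 IVD embryos lie above the highest AI embryo for CDK9, and IVF embryos are highest for POLDIP3 and lowest for CDC34 and CDKN2AIPNL by their medians.

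The remaining calls were small. MCM3AP, a scaffold of mRNA export that is no helicase subunit, ran from -1.04 to 0.29 in IVF embryos (median -0.15), from -1.45 to 0.20 in IVD embryos (median -0.81) and from -1.31 to 0.33 in AI embryos (median -0.72). It was higher in IVF than in IVD embryos by 0.57 (adjusted p = 0.00494), a call lost with the values as given. Its difference from AI embryos, 0.41 (adjusted p = 0.0478), was lost in 8 alternatives, the values as given among them. The ranges overlapped.

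CDK20, a kinase with a part in cilia, ran from 0.66 to 1.63 in IVF embryos (median 1.17), from 0.30 to 1.16 in IVD embryos (median 0.79) and from 0.14 to 1.46 in AI embryos (median 0.89). CDK3 ran from -0.62 to 0.24 in IVF embryos (median -0.21), from -0.66 to -0.23 in IVD embryos (median -0.52) and from -0.66 to 0.03 in AI embryos (median -0.48). CDK5RAP2, a centrosome protein, ran from -0.77 to 0.94 in IVF embryos (median 0.40), from -0.47 to 0.39 in IVD embryos (median -0.02) and from -0.28 to 0.43 in AI embryos (median -0.19). All 3 genes were higher in IVF embryos than in both other groups, with overlapping ranges. The differences from AI embryos were 0.30 for CDK20 (adjusted p = 0.0239), 0.23 for CDK3 (adjusted p = 0.0301) and 0.34 for CDK5RAP2 (adjusted p = 0.0421). The differences from IVD embryos were 0.39 for CDK20 (adjusted p = 0.00291), 0.27 for CDK3 (adjusted p = 0.00765) and 0.35 for CDK5RAP2 (adjusted p = 0.0312). All of these 6 calls were lost with the values as given, and all but the IVF minus IVD call of CDK3 also on the arrays of 1 dye alone. Against AI embryos, dye bias as a block ended the calls of CDK20, CDK3 and CDK5RAP2 too. Values moved with the dye, to 0.51 for CDK20 against AI embryos on the Cy3 arrays, and on the Cy5 arrays to 0.54 for CDK5RAP2 against AI embryos and 0.63 against IVD embryos. A fit of the 2 groups alone and 1 row per gene ended both calls of CDK5RAP2 and the AI call of CDK3, and the AI call of CDK5RAP2 was lost without AI embryos H1, H3 and H5.

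CDK5RAP1, an enzyme that modifies mitochondrial transfer RNA, ran from 0.96 to 2.35 in IVF embryos (median 1.86), from 1.11 to 1.58 in IVD embryos (median 1.36) and from 1.34 to 2.08 in AI embryos (median 1.72). It was lower in IVD than in AI embryos, at -0.40 (adjusted p = 0.0203) and higher in IVF than in IVD embryos by 0.43 (adjusted p = 0.00858). CDC37, a cochaperone of protein kinases, ran from -0.47 to 0.19 in IVF embryos (median -0.27), from -0.72 to -0.17 in IVD embryos (median -0.48) and from -0.61 to just below 0 in AI embryos (median -0.29), and was higher in IVF than in IVD embryos by 0.25 (adjusted p = 0.00826). Ranges overlapped for both genes, and the calls of both were lost with the values as given and with the Cy3 arrays alone. On the Cy5 arrays CDK5RAP1 had differences of -0.64 (IVD minus AI) and 0.69 (IVF minus IVD), and its IVD minus AI call was lost without IVD embryos 12_1 to 12_4. Of the class of other roles, CCNI, CCNQ, CCNY, CDC40, CDK14, CDK16 and CDK2AP1 passed in no comparison. CDK14 had the widest spread of the list in AI embryos (SD 0.935), and its differences from AI embryos, 0.61 in IVF embryos (adjusted p = 0.0899) and 0.68 in IVD embryos (adjusted p = 0.0539) did not pass. The IVD minus AI difference of CDK14 passed in 4 alternatives, and the IVF minus IVD difference of CDC40 in 3.

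A wider list of 135 replication, checkpoint and mitosis genes was chosen by knowledge of the pathway, with earlier results of these data known. Its shares of calls are therefore a description and not a test. The list had 43 genes on the array that are not among those above, and 32 were tested. Between IVF and AI embryos 9 were higher and 7 lower in IVF (50.0% called, against 37.7% of all features, of which 19.9% higher and 17.7% lower), with a median difference of 0.06. The highest were TOPBP1, a scaffold of replication initiation and checkpoint signalling, at 0.85 ± 0.22 (adjusted p = 0.00256), the growth arrest gene GADD45A at 0.78 ± 0.14 (adjusted p = 1.77e-05) and the condensin subunit NCAPH at 0.70 ± 0.25 (adjusted p = 0.0241). The lowest were the histone chaperone NASP at -1.31 ± 0.19 (adjusted p = 1.38e-06), the microtubule regulator STMN1 at -1.10 ± 0.23 (adjusted p = 0.000271) and the ribonuclease subunit RNASEH2A at -1.01 ± 0.17 (adjusted p = 1.04e-05). The NCAPH call was lost with the values as given, with the Cy3 arrays alone, with a fit of the 2 groups alone and with dye bias as a block, and the calls of TOPBP1 and GADD45A with dye bias as a block (average linkage). With that block 0 genes of this list were higher and 5 lower in IVF embryos, where 8.03% of all features were called.

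Between IVD and AI embryos 7 genes of the wider list were higher and 5 lower in IVD, with a median difference of 0.06. That is 37.5% called, against 46.5% of all features (25.5% higher, 21.0% lower). With the values as given 11 were higher and 2 were lower, where 44.9% of all features were called and 85.3% of those were higher. MDM2, which holds p53 in check, was higher by 1.64 ± 0.32 (adjusted p = 4.86e-05), the kinase PLK2 by 1.37 ± 0.26 (adjusted p = 3.24e-05) and TOPBP1 by 0.87 ± 0.22 (adjusted p = 0.00173). TFDP1, the partner of the E2F factors, was lower, at -0.97 ± 0.11 (adjusted p = 2.51e-09), AURKB, the kinase of the chromosomal passenger complex, at -0.73 ± 0.12 (adjusted p = 3.52e-06; -0.41 with the Cy3 arrays alone) and RNASEH2A, at -0.50 ± 0.17 (adjusted p = 0.0151). The RNASEH2A call was lost with the values as given, with the Cy3 arrays alone and without IVD embryos 12_1 to 12_4. TFDP1 was also lower in IVF than in AI embryos, at -0.90 ± 0.11 (adjusted p = 3.42e-08).

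Between IVF and IVD embryos 5 genes of the wider list were higher and 10 lower in IVF, with a median difference of -0.02. That is 46.9% called, against 47.6% of all features (22.3% higher, 25.2% lower). With the values as given 1 was higher and 13 were lower, where 42.4% of all features were called and 17.5% of those were higher. AURKB was higher by 0.77 ± 0.12 (adjusted p = 1.05e-06; 0.47 with the values as given), NCAPH by 0.71 ± 0.25 (adjusted p = 0.0148) and the anaphase promoting complex subunit ANAPC5 by 0.64 ± 0.20 (adjusted p = 0.00815). The calls of NCAPH and ANAPC5 were lost with the values as given, and that of ANAPC5 also with the Cy3 arrays alone. MDM2 was lower, at -1.45 ± 0.31 (adjusted p = 0.000166), NASP, at -1.00 ± 0.19 (adjusted p = 3.79e-05) and STMN1, at -0.92 ± 0.23 (adjusted p = 0.0011).

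The spread between embryos of a group was that of the array as a whole. The median SD of the 46 genes was 0.423 in IVF embryos, 0.301 in IVD embryos and 0.398 in AI embryos, against 0.423 in IVF, 0.326 in IVD and 0.399 in AI embryos over all features. CDK2 varied most in IVF embryos (SD 0.785) and CDK14 in IVD embryos (SD 0.683). The lowest SD was that of CDC37 in IVF embryos (0.195), CDK3 in IVD embryos (0.147) and CCNDBP1 in AI embryos (0.158).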

How the data were processed

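Per the labels, embryo and reference cDNA were dye-coupled and hybridised to 2-colour arrays. The authors deposited log2 ratios in 1 table of 16416 rows and 86 arrays; the sources used here do not give their normalization, background correction or spot filter. Of its cells 20.1% had no value, and array medians ran from -2.22 to 1.06. The median of the 5558 rows that no array lacked was taken off each array, the sign of ratios with a Cy3-coupled embryo was changed, and an embryo's 2 arrays were averaged. Rows with at least 7 embryos per group measured on both arrays were kept (10757), and rows of 1 symbol were averaged. All 53 genes matched RefSeq (ARS-UCD2.0) by gene identifier; no sequence or coordinate is given. The test was limma (version 3.58.1, R 4.3.3) on 6278 features. On simulated data with independent normal noise it recovered 91.5% of 200 features changed by 1 log2 unit between IVF and AI embryos. That change is larger than any IVF minus AI difference among the genes chosen by name, and recovery at their sizes was not tested. Every tested gene is accounted for by role, with the embryo ranges of the called ones. Genes and lists were chosen with earlier results of these data known. Alternatives changed the centring (the values as given, all measured rows, quantile), the dye, the filter, the row per gene, the embryos and the model. Dye bias, the mean of an embryo's 2 unturned arrays, was clustered into 3 clusters for use as a block between IVF and AI embryos alone. The number of embryos limits the precision, and separate animals are not stated. The p-values set group differences against the spread between these embryos and treat embryos as independent, which the labels do not show.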

Additional observations from a re-analysis of the deposited data

How the results depend on the processing

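Of 54 called differences among the 46 genes, 20 kept call and sign in every alternative run. Dye bias as a block was run between IVF and AI embryos alone, so differences with IVD embryos were not put to it. The sign turned for CDK10 between IVF and AI embryos, which was -0.17 with the Cy3 arrays alone. Genes with no call in the main setting that passed in an alternative were CCNA1, CCNC, CDC23, CDC40, CDK7, CDK14, ORC6, PCNA and POLD4. Of the 15 genes called between IVF and AI embryos, 8 were called with the values as given (21.1% of all features, against 37.7% in the main setting) and 5 with dye bias as a block (average linkage, 8.03% of all features). With Ward linkage, an alternative chosen after seeing the data, 11 were called (30.2%). By average linkage, 11 IVF embryos and 1 AI embryo formed one cluster and 2 IVF, 14 IVD and 13 AI embryos another; the cause was not tested. With rows measured on both arrays of every embryo, which left 23 genes to test, 9 genes were called between IVD and AI embryos (20 in the main setting; 50.1% of all features here), 10 between IVF and IVD embryos (19; 53.2%) and 14 in the F-test (28; 73.3%). With the embryo number as a replicate block, 5 genes were called between IVF and AI embryos (25.6% of all features). No label says whether a shared number pairs embryos. Deviations of same-numbered embryos correlated at -0.187 to 0.213, which cannot show whether such embryos share an origin. In 3 of 42 comparisons of an embryo with another group, the closest embryo had the same number. Few AI embryos with a value limit MCM2 (7), POLD4 (7), CDK2 (8) and CDCA4 (8).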

Other observations

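The 7 genes that could not be tested had few measured AI embryos. An embryo is counted here only where both of its arrays had a value. CCND3, a D-type cyclin, had a value in up to 1 IVF, 14 IVD and 4 AI embryos per row, and CDK6, the other kinase partner of D-type cyclins beside CDK4, in up to 13 IVF, 13 IVD and 4 AI embryos. POLA2, a subunit of the primase polymerase, had one in up to 9 IVF, 14 IVD and 2 AI embryos. CDC5L, of the spliceosome, was measured in up to 7 IVF, 14 IVD and 3 AI embryos, CDK5R1 in up to 0 IVF, 10 IVD and 3 AI embryos. CDCP1 and CDK2AP2 had values on both arrays in IVD embryos alone, in up to 12 and 9 of them. Why spots lack a value is not stated, so a missing value says nothing of the level.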
